A study of Homo sapiens with 4 samples.

Results

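The proteins that shape the red cell membrane and carry its blood group antigens were followed at the RNA level in an imatinib-sensitive and an imatinib-resistant leukaemia cell line. The set holds 31 genes named by symbol, from spectrins, ankyrin, adducins and protein 4.1 to glycophorins, Rh and Kell proteins, other antigen carriers and the enzymes that build ABO antigens. Of the 32673 genes in the expression table, 30 carry these symbols, ICAM4 was not analysed here, and 27 were expressed enough to be tested. The list was chosen with earlier results of these data known and was matched by symbol, and its genes are grouped here by function.

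RNA sequencing compared TF1-BA cells with TF1-BAR cells, with 2 libraries of each, and the question here was whether the membrane genes differed between them. TF1 is a human leukaemia line of erythroid and myeloid character that grows on GM-CSF, and TF1-BA cells are TF1 cells made to express p210 BCR-ABL by a retrovirus. TF1-BAR cells were derived from them by long culture in imatinib and were kept in 2 uM imatinib, while the labels give 2 ng/ml GM-CSF for both lines and the study's methods a higher concentration. The labels give imatinib for the resistant culture alone, so the drug and the acquired resistance cannot be told apart, each line is described as a single derivation, and nothing says that the libraries of a line came from separate cultures. The p-values below therefore measure the spread between libraries, which may be technical. The resistant libraries also carry the word vector in their titles, which the labels do not explain.

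Mature red cells keep their shape through a lattice of spectrin tetramers under the lipid bilayer, joined at short actin filaments by protein 4.1, adducin, dematin and tropomodulin. The lattice is tied to the membrane at ankyrin, which binds the anion exchanger band 3 together with protein 4.2 and the Rh complex, and at the junctions, where protein 4.1 binds glycophorin C. Blood group antigens sit on some of these transmembrane proteins, on other membrane proteins and on their sugars, and many of the carriers are made during erythroid differentiation.

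Expression was given by the authors as FPKM, the fragments of a gene scaled to its length and to the size of the library, so that levels of different genes can be set side by side. Values are written in the order of replicates 1 and 2 of TF1-BA, then 1 and 2 of TF1-BAR. Log2 fold changes are TF1-BAR minus TF1-BA on log2(FPKM + 0.5), which understates the change of weakly expressed genes, and come from limma with p-values adjusted by the Benjamini-Hochberg method over the 15519 genes whose 4 libraries averaged 0.5 FPKM or more. A gene is said to have risen or fallen where its adjusted p was under 0.05, and it passed the fold threshold where its absolute log2 fold change was also at least 1. With 2 libraries against 2, an exact permutation test of a single gene cannot give a p below 0.333.

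The libraries held 15465497 to 18042299 fragments, and libraries of a line correlated at r = 0.983 and 0.979 over genes, against 0.946 to 0.956 between lines. The erythroid regulator GATA1 was listed at 75.4, 74.7, 65.9 and 70.6 FPKM, so this erythroid marker was well expressed in both lines. The summed FPKM of 12 erythroid markers was 427 and 423 in TF1-BA and 312 and 327 in TF1-BAR. Its 6 globin genes had sums of 151 and 148 against 41.8 and 45.5, while the other 6 erythroid genes summed to 276 and 275 against 270 and 281. Markers of myeloid progenitors summed to 142 and 133 FPKM against 233 and 240, and megakaryocyte markers to 142 and 150 against 194 and 217. Most of the megakaryocyte sum was ITGA2B, at 120 and 128 FPKM against 158 and 176. GP1BA and GP9 rose as well, while ITGB3 overlapped between the lines. Mature myeloid markers summed to 44.4 and 43.95 against 65.0 and 76.0. Most of that rise was ITGAM, at 29.3 and 30.3 FPKM against 48.4 and 60.2, while LYZ did not pass the test (adjusted p = 0.209). CD14 and S100A9 were no higher than 0.067 and 0.108 FPKM in any library. Lymphoid markers summed to 31.6 and 32.8 against 22.4 and 22.1, where CD3D fell while CD79A and NKG7 rose. No listed marker was at 0 in every library, and the part of these shifts in the results below was not tested. In RNA from whole cultures, fewer cells of a type and less RNA per cell cannot be told apart.

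The main change lay in the glycophorin genes. GYPE and GYPB, neighbouring copies on chromosome 4, were higher in TF1-BAR than in TF1-BA and passed the fold threshold, and GYPC on chromosome 2 rose by less. The Rh antigen genes RHD and RHCE fell while their partner RHAG rose. Protein 4.1, the Kell complex pair and the antigen carriers ERMAP and BCAM rose, and stomatin, the beta spectrin SPTBN1, gamma adducin and ABO fell. Ankyrin, alpha adducin, dematin and tropomodulin did not pass the test in either direction.

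In counts, 2 of the 27 genes tested passed the fold threshold upwards, where 3.05% of all genes tested did, and 0 did so downwards, where 1.69% of all genes did. Of the 2, GYPB was tested only because of its TF1-BAR level, with a mean of 0.236 FPKM in TF1-BA. No gene of the set came near the fold threshold downwards, since the lowest log2 fold change was -0.73, and -0.82 over the other settings with all libraries, limma voom included. By the adjusted p alone 12 of the 27 rose, or 44.4%, beside 16.3% of all genes. A further 6 fell, or 22.2%, beside 10.5% of all genes, and 9 did not pass. This set and the lists below were chosen with earlier results of these data known, so such shares are not an unbiased comparison. The 2 libraries of TF1-BAR were both above both TF1-BA libraries for 15 of the 27, beside 40.9% of all genes, and both below for 7, beside 28.4%, so that counts of non-overlapping groups lay closer to the background than counts of adjusted p-values. The median log2 fold change was 0.26 over the 27 genes and 0.07 over all genes tested. The median level of the 27 was 6.33 FPKM against 4.52 for all genes tested, and the part of this in the counts was not tested. These calls rested on all 4 libraries: of the 18 genes that rose or fell, 14 still passed without TF1-BAR replicate 1, 5 without TF1-BAR replicate 2, 1 without TF1-BA replicate 1 and 0 without TF1-BA replicate 2, with the direction kept each time. With all libraries but no filter on low values, 7 of the 18 still passed.

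The sequences before the start sites of the moved gene pairs are shown first, since each pair is a recent duplication whose copies moved in the same direction. They are the 250 bases before a RefSeq start on GRCh38.p14, read 5′ to 3′ on the gene's strand. GYPE is at chr4:143905560-143905809 on the minus strand, GYPB at chr4:144019346-144019595 on the minus strand, RHD at chr1:25272259-25272508 on the plus strand and RHCE at chr1:25420826-25421075 on the minus strand. Where RefSeq lists several starts, the pair of windows that aligned best is given. Capitals mark matches on either strand to the GATA factor motif, searched as AGATAA or AGATAG and as TGATAA or TGATAG, and to the KLF1-type motif CCNCNCCC.
GYPE: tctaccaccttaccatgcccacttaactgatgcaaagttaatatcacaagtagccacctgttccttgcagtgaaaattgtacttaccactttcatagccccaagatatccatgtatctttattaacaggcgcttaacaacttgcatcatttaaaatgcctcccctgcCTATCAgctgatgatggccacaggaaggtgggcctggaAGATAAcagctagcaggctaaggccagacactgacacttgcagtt
GYPB: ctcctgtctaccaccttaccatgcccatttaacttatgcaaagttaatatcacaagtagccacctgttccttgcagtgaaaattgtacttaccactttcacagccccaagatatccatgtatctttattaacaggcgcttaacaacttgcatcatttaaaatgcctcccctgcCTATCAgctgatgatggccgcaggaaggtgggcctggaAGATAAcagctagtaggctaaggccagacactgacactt
RHD: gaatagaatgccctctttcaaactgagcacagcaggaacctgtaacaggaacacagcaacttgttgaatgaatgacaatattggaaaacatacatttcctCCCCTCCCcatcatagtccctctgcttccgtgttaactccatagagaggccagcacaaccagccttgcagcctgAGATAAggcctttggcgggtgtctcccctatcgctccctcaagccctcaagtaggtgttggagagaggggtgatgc
RHCE: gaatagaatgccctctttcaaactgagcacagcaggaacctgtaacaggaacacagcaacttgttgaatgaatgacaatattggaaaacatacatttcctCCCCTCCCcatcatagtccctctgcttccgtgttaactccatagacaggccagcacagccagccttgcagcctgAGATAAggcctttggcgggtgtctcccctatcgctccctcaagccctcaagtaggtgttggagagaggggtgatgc

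The glycophorin windows were identical at 239 of 244 aligned bases, or 98.0%. Each held AGATAA, at bases 45 to 40 before the start in GYPE and 39 to 34 in GYPB, and TGATAG on the other strand, at bases 83 to 78 and 77 to 72. RHD and RHCE were identical at 248 of 250 bases, or 99.2%, and each held CCNCNCCC at bases 150 to 143 and AGATAA at bases 76 to 71 before the start. The glycophorin and Rh pairs both carried AGATAA close to the start, and the part of this motif in their changes was not tested. A window before the first listed start was found for 24 of the 30 genes. Of these, 10 held a GATA match, while 22.9% of all 27305 such windows did, and 19 held CCNCNCCC, against 52.4% of all. The 10 were ADD3, EPB41, EPB42, GYPB, GYPC, GYPE, KEL, RHAG, RHD and SPTB, and the window of the first listed RHCE start ends before its match. Such a match is a description of letters and not evidence that a factor binds.

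Glycophorins are sialic-acid-rich proteins that span the membrane once and carry the MNS and Gerbich antigens. GYPE, at chr4:143870867-143905563 on the minus strand, encodes a small relative of the MNS glycophorins. Its FPKM were 1.94 and 1.87 in TF1-BA and 7.34 and 8.32 in TF1-BAR, from at least 35, 29, 116 and 134 fragments. Both resistant libraries were well above both sensitive ones, and GYPE rose by a log2 fold change of 1.79 ± 0.0988 (SE, adjusted p = 0.00289). Without TF1-BA replicate 2 its adjusted p was 0.0526, with a log2 fold change of 1.77.

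GYPB carries the S and s antigens and lies at chr4:143996104-144019345 on the minus strand. It was low in TF1-BA, at 0.142 and 0.330 FPKM, and was at 1.94 and 1.67 FPKM in TF1-BAR. The recovered fragments were 2, 4, 24 and 21. These are the smallest counts that fit the FPKM, and a multiple of them would fit as well. The groups did not overlap, and the log2 fold change was 1.66 ± 0.205 (SE, adjusted p = 0.00952). Scaled to library size, the 45 fragments of TF1-BAR against the 6 of TF1-BA made a ratio of 7.89, with a 95% exact interval of 3.36 to 22.6. That interval covers counting error only and holds for these smallest counts. The size of the log2 fold change depended on the pseudocount, with 1.19 for 1 FPKM and 2.56 for 0.1 FPKM. Its adjusted p was 0.0589 without TF1-BA replicate 1, 0.0565 without TF1-BA replicate 2 and 0.0540 without TF1-BAR replicate 2. GYPB shared 6.1% of its 100-base windows with other genes, so its reads could be split among near-identical copies, and GYPE shared none.

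GYPC encodes glycophorins C and D, the Gerbich antigen carriers that anchor protein 4.1, and stands on chromosome 2 apart from the chromosome 4 copies. It was the most abundant of these glycophorins, at 32.1 and 34.0 FPKM in TF1-BA and 44.5 and 47.4 in TF1-BAR. Both resistant libraries were higher, by a log2 fold change of 0.47 ± 0.0694 (SE, adjusted p = 0.0129). Since GYPE changed by more, the level of GYPC relative to GYPE went from 16.6 and 18.2 in TF1-BA to 6.05 and 5.69 in TF1-BAR. GYPB, GYPC and GYPE together summed to 34.1 and 36.2 FPKM and then to 53.8 and 57.3.

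The genes around the chromosome 4 copies were looked at as well. Among 8 other genes tested within 1000 kb of the glycophorin cluster, the median log2 fold change was 0.07, and 1 passed the test. That gene was AC093890.2, a processed pseudogene at chr4:143911514-143912053 between GYPE and GYPB, at 2.05, 2.04, 5.52 and 4.95 FPKM with a log2 fold change of 1.17 ± 0.0976 (SE, adjusted p = 0.00531). SMARCA5, USP38, GAB1, ANAPC10, ABCE1 and OTUD4, the named protein-coding genes around the cluster, lay between -0.27 and 0.30 and did not pass. SMARCA5, a chromatin remodelling ATPase and the nearest of them on the GYPE side, was at 19.6, 19.0, 23.4 and 20.4 FPKM, with a log2 fold change of 0.17 (adjusted p = 0.208).

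The Rh proteins form a complex in the membrane, in which RHAG, an ammonia channel, is needed for RHD and RHCE to reach the surface. RHD, the D antigen, lies at chr1:25272393-25330445 on the plus strand. Its FPKM were 10.4 and 9.08 in TF1-BA and 7.26 and 6.82 in TF1-BAR, from 622, 465, 379 and 363 fragments. The resistant libraries were both lower, and RHD fell by 0.44 ± 0.0963 on the log2 scale (SE, adjusted p = 0.0315).

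RHCE, which carries the C, c, E and e antigens, lies next to it in the opposite orientation at chr1:25362249-25430192. Its FPKM were 8.25 and 7.76 in TF1-BA and 4.75 and 4.50 in TF1-BAR, from 362, 292, 182 and 176 fragments. It fell by 0.73 ± 0.0821 (SE, adjusted p = 0.00804), the largest fall among the 27 genes tested. RHD and RHCE had 231 windows of 100 bases in common, 6.0% of those of RHD and 7.7% of those of RHCE, so the split of reads between them is uncertain. The ratio of RHD to RHCE was 1.26 and 1.17 in TF1-BA and 1.53 and 1.51 in TF1-BAR.

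RHAG, on chromosome 6, moved the other way. It was at 35.8 and 35.9 FPKM in TF1-BA and 42.5 and 46.4 in TF1-BAR, and it rose by a log2 fold change of 0.30 ± 0.0691 (SE, adjusted p = 0.0341). The adjusted p of RHAG was 0.0713 with upper-quartile scaling, 0.0788 with eBayes without trend and 0.0779 with no filter, and that of RHD was 0.0564 and 0.0854 in the last pair of settings. Summed over RHAG, RHD and RHCE, the Rh family stayed between 52.8 and 57.7 FPKM in the 4 libraries. What moved was its composition, because RHAG was 1.92 and 2.14 times the sum of RHD and RHCE in TF1-BA and 3.54 and 4.10 times in TF1-BAR. Of 36 other genes tested within 1000 kb of the Rh pair, 5 rose and 5 fell, near the 16.3% and 10.5% of all genes, with a median log2 fold change of 0.10.

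**Figure D1:**
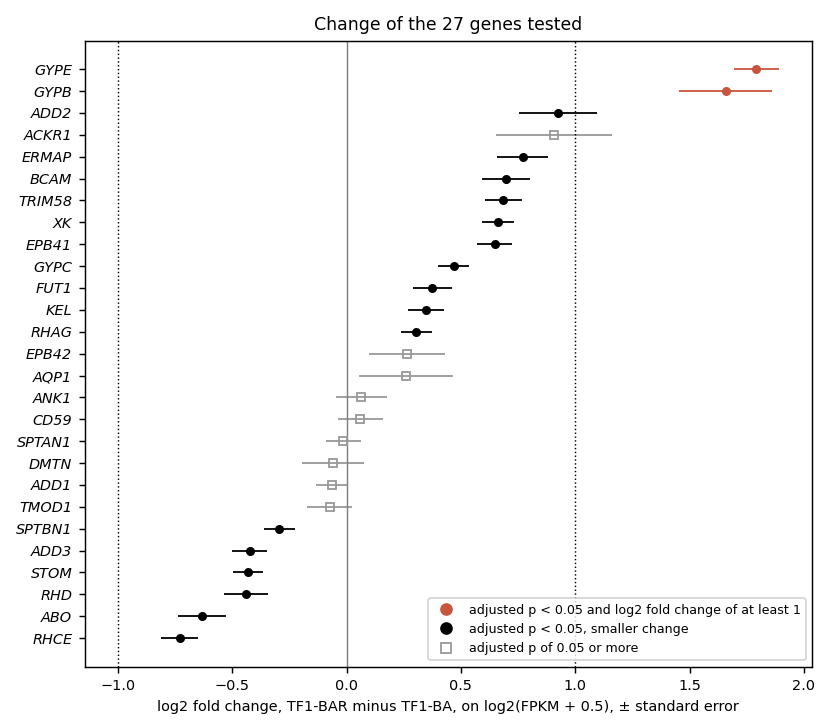
Log2 fold change of each of the 27 genes tested, with its standard error, where dotted lines mark a change of 1 in either direction. GYPE at 1.79 and GYPB at 1.66 stand beyond the line, ADD2 at 0.92 and ACKR1 at 0.91 lie just inside it, and RHCE at -0.73 is the lowest.

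Spectrins are the long rods of the lattice. SPTB, the red cell beta spectrin, was barely detected, at 0.379, 0.407, 0.245 and 0.400 FPKM, and was below the level needed for the test. SPTBN1 and SPTAN1, the beta and alpha spectrins of other cells, carried nearly all of the spectrin signal of the genes listed here. SPTBN1 was at 15.9 and 16.6 FPKM in TF1-BA and 13.1 and 13.2 in TF1-BAR, without overlap, and fell by 0.29 ± 0.0674 (SE, adjusted p = 0.0349). SPTBN1 missed the threshold after rescaling to TPM (adjusted p = 0.0633), with eBayes without trend (0.0699) and with no filter (0.0618). SPTAN1 was at 7.64, 7.80, 7.39 and 7.89 FPKM, and its groups overlapped. SPTBN1 was 41.9 and 40.7 times SPTB in TF1-BA and 53.4 and 33.0 times in TF1-BAR. SPTB shares 21.5% of its windows with the overlapping gene PLEKHG3, so even its low level may include reads of that gene.

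At the ankyrin complex, 1 of 3 genes tested rose and none fell, too few to set against the same shares of all genes. ANK1, the erythroid ankyrin, was strongly expressed in every library at 18.9, 17.5, 17.2 and 21.0 FPKM, and its groups overlapped with a log2 fold change of 0.06 (adjusted p = 0.697). SLC4A1, band 3, to which ankyrin binds in red cells, had only 27, 17, 15 and 14 fragments, or 0.283, 0.208, 0.180 and 0.165 FPKM, and was not tested. ANK1 was thus 66.7 to 127 times band 3 across the 4 libraries. EPB42, protein 4.2, was at 0.706 and 0.893 FPKM and then 0.990 and 1.13, and its log2 fold change of 0.26 did not pass the test (adjusted p = 0.286). Its FPKM imply a length of 5574 bases, against 2932 bases of exon in GENCODE 44, and 11.1% of its windows are shared with an overlapping gene, so its level is uncertain. The same limit of length holds for the levels and level ratios of GYPB (783 bases against 1907), GYPE (1002 against 2007), EPB41 (10739 against 19993) and CD59 (4942 against 10557). It also holds for TRIM58 (3225 against 5170) and ACKR1 (2106 against 1348) and, by less, for RHAG (1912 against 2629). A fold change between libraries does not depend on the length beyond the pseudocount. The 3 red cell forms SPTB, SLC4A1 and EPB42 were therefore among the weakest genes of the set, beside strong ANK1 and RHAG.

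Genes of the junctional complex, where spectrin meets actin, moved in both directions. EPB41, protein 4.1, which binds spectrin to actin and to glycophorin C, was at 26.9 and 27.7 FPKM in TF1-BA and 40.8 and 45.5 in TF1-BAR. Both resistant libraries were higher, and EPB41 rose by 0.65 ± 0.0773 on the log2 scale (SE, adjusted p = 0.00898). Its membrane partner GYPC rose as well, as given above.

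Adducin caps actin filaments as a dimer of the ADD1 chain with ADD2 or ADD3, and ADD2 is the form typical of red cells and brain. ADD2 was weakly expressed but separated, at 0.407 and 0.475 FPKM in TF1-BA against 1.18 and 1.39 in TF1-BAR, from 93, 93, 236 and 283 fragments. It rose by 0.92 ± 0.170 (SE, adjusted p = 0.0217), just under the fold threshold. Its TF1-BA mean of 0.441 FPKM was below the filter of 0.5 FPKM, so ADD2 was tested only because of its TF1-BAR level. With a pseudocount of 0.1 FPKM the log2 fold change of ADD2 was 1.36, and on recovered fragments with limma voom it was 1.55, both past the threshold. With a pseudocount of 1 FPKM the log2 fold change of ADD2 was 0.66 and with quantile normalization 0.77, and with no filter its adjusted p was 0.0653.

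ADD3 was much the more abundant partner chain, at 20.9 and 20.03 FPKM in TF1-BA and 15.8 and 14.5 in TF1-BAR, and it fell by 0.42 ± 0.0753 (SE, adjusted p = 0.0199). ADD3 is on chromosome 10, where the median log2 fold change of all 593 genes tested was -0.35, so its fall was close to that of its chromosome. ADD1 was level, at 9.43, 9.51, 8.97 and 9.09 FPKM, with a log2 fold change of -0.07 (adjusted p = 0.515). The ratio of ADD3 to ADD2 went from 51.5 and 42.2 in TF1-BA to 13.3 and 10.5 in TF1-BAR, and ADD2 made up 1.32% and 1.58% of the summed adducin FPKM in TF1-BA and 4.56% and 5.56% in TF1-BAR.

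DMTN, the actin-bundling protein dematin, was at 1.78, 1.47, 1.60 and 1.47 FPKM, and TMOD1, tropomodulin, which caps the slow end of the filament, at 6.61, 6.38, 5.70 and 6.63. The groups overlapped for both, with log2 fold changes of -0.06 for DMTN and -0.07 for TMOD1. TMOD1 shares 43.8% of its windows with TSTD2, so its level may hold reads of that gene. STOM, stomatin, a protein of lipid rafts and of the cytoplasmic face of the membrane, was the highest of the 30 genes, with 97.3% of all genes tested below it. It was at 94.8 and 87.1 FPKM in TF1-BA and 67.2 and 67.5 in TF1-BAR, and fell by 0.43 ± 0.0660 on the log2 scale (SE, adjusted p = 0.0140).

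KEL and XK encode the linked pair of the Kell complex, an endopeptidase that carries the Kell antigens and a membrane protein with the Kx antigen. Both were expressed and both rose. XK, on the X chromosome at chrX:37685759-37732130, was at 13.3 and 12.9 FPKM in TF1-BA and 21.5 and 20.4 in TF1-BAR, with a log2 fold change of 0.66 ± 0.0692 (SE, adjusted p = 0.00712). KEL, on chromosome 7, was at 6.91 and 7.43 and then 9.36 and 9.13 FPKM, with a log2 fold change of 0.35 ± 0.0783 (SE, adjusted p = 0.0338). KEL lost this call with upper-quartile scaling (adjusted p = 0.0677), quantile normalization (0.0503), eBayes without trend (0.0590) and no filter (0.0710). Neither gene had a TF1-BAR library below a TF1-BA library.

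Among the other antigen carriers, 2 of 5 tested rose and none fell, where 16.3% of all genes rose and 10.5% fell, so the absence of a fall among 5 genes is no result. ERMAP, an immunoglobulin-like protein with the Scianna antigens, was at 3.75 and 3.34 FPKM in TF1-BA and 5.92 and 6.88 in TF1-BAR, and rose by 0.77 ± 0.111 (SE, adjusted p = 0.0124). BCAM, the laminin receptor with the Lutheran antigens, was at 8.89 and 8.53 and then 13.2 and 15.7 FPKM, and rose by 0.70 ± 0.103 (SE, adjusted p = 0.0129). Both had resistant libraries clearly above the sensitive ones.

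ACKR1, the Duffy antigen and a chemokine-binding receptor, had 0.526 and 0.952 FPKM in TF1-BA and 1.45 and 2.19 in TF1-BAR. Its groups did not overlap, yet its libraries were far apart within each line, and its log2 fold change of 0.91 ± 0.254 just missed the test (SE, adjusted p = 0.0565). Over the settings that used all 4 libraries, its adjusted p ran from 0.00572 to 0.163. SLC14A1, the urea transporter with the Kidd antigens, was at 0.217 and 0.172 FPKM against 0.667 and 0.781, from 25, 17, 67 and 80 fragments, and its mean was too low for the test. With no filter it had a log2 fold change of 0.82 (adjusted p = 0.0657).

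AQP1, the water channel with the Colton antigens, was at 0.855, 0.527, 0.868 and 0.960 FPKM, with a log2 fold change of 0.26 that did not pass (adjusted p = 0.383). AQP1 shares 22.2% of its windows with an overlapping gene. CD59, a lipid-anchored inhibitor of complement, was at 3.34, 3.04, 3.22 and 3.46 FPKM, and its groups overlapped with a log2 fold change of 0.06 (adjusted p = 0.685).

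The glycosyltransferases that act in sequence on ABO antigens had fold changes of opposite sign. FUT1 makes the H antigen on which the ABO enzyme acts. It was at 4.58 and 4.26 FPKM in TF1-BA and 5.74 and 6.02 in TF1-BAR, and rose by 0.38 ± 0.0853 (SE, adjusted p = 0.0343). FUT1 lost this call with the replicate block (adjusted p = 0.0516), upper-quartile scaling (0.0618), quantile normalization (0.0545), eBayes without trend (0.0532) or no filter (0.0788). ABO, on chromosome 9, was at 3.85 and 3.79 FPKM in TF1-BA and 2.13 and 2.45 in TF1-BAR, from 441, 372, 213 and 250 fragments, and fell by 0.63 ± 0.104 (SE, adjusted p = 0.0167). Libraries of the lines did not overlap for either gene.

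TRIM58 is a ubiquitin ligase of late erythroblasts that acts in the release of the nucleus. Its libraries agreed closely within each line, at 3.54 and 3.63 FPKM in TF1-BA and 6.06 and 6.08 in TF1-BAR. TRIM58 rose by 0.69 ± 0.0795 on the log2 scale (SE, adjusted p = 0.00863).

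**Figure D2:**
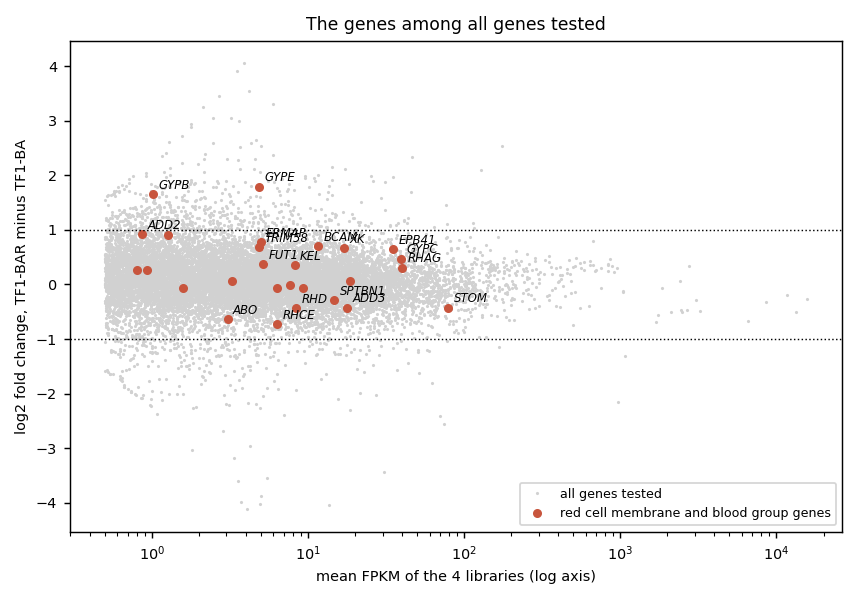
Log2 fold change against the mean FPKM of the 4 libraries on a log axis, with all 15519 genes tested in grey and the 27 genes in red, those with an adjusted p under 0.05 being named. GYPE and GYPB lie above the dotted line at 1, and the other named genes lie inside the band between -1 and 1, most of them at a mean of 1 to 50 FPKM.

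Of the erythroid regulators GATA1, KLF1 and TAL1, only TAL1 passed the test. GATA1 and KLF1, factors that act on many erythroid membrane genes, had log2 fold changes of -0.14 (adjusted p = 0.164) and -0.34 (adjusted p = 0.0519). TAL1, another erythroid factor, rose by 0.76 ± 0.0952 (SE, adjusted p = 0.00976). The part of these factors in the changes of the membrane genes was not tested.

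A wider list of 35 other red cell membrane and blood group genes, none of them in the set above, held 30 that could be tested. In it 9 rose and 9 fell at an adjusted p under 0.05, or 30% each, beside 16.3% and 10.5% of all genes. Past the fold threshold 1 rose and 2 fell, beside 3.05% and 1.69% of all genes. The complement receptor CR1, which carries the Knops antigens, was among those that fell, at 8.25 and 8.65 FPKM in TF1-BA and 3.88 and 3.67 in TF1-BAR, with a log2 fold change of -1.07 ± 0.0818 (SE, adjusted p = 0.00439). The median log2 fold change of the 30 was -0.08, beside 0.07 for all genes. Without TF1-BA replicate 1 or TF1-BA replicate 2, 0 of the 30 passed the fold threshold.

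Relatives of the same proteins that serve other tissues were also measured. Of 21 listed, 13 were tested, 5 rose and 0 fell at an adjusted p under 0.05, beside 16.3% and 10.5% of all genes. Counts this small say little against those shares. Also 0 had a lower level at an unadjusted limma p under 0.05 or at an adjusted p under 0.05 with limma voom. TMOD2, the neuronal tropomodulin, was at 0.295 and 0.333 FPKM in TF1-BA and 1.32 and 1.48 in TF1-BAR, with a log2 fold change of 1.22 ± 0.169 (SE, adjusted p = 0.0115). SLC4A3, an anion exchanger related to band 3, was at 0.370 and 0.457 and then 1.55 and 1.55 FPKM, with a log2 fold change of 1.17 ± 0.158 (SE, adjusted p = 0.0112). TMOD2 and SLC4A3, at means of 0.314 and 0.414 FPKM in TF1-BA, were tested only because of their TF1-BAR levels. These were the only relatives past the fold threshold, and 0 were past it with a pseudocount of 1 FPKM, with a mean of at least 1 FPKM, or without TF1-BA replicate 1, TF1-BA replicate 2 or TF1-BAR replicate 2.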

How the data were processed

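RNA of TF1-BA and TF1-BAR cells, 2 libraries each of 10000000 cells, was sequenced by the authors, who mapped 150-base paired reads to GRCh38. Per the labels' processing notes, TopHat2 2.0.13, Cufflinks 2.2.0 and Cuffdiff 2.2.0 were used. The annotation release is not given in the sources used here, and the library kit is not stated to keep strand, so reads of overlapping genes cannot be told apart. The deposited values are FPKM per gene and library, without log transformation. For 26 genes whose symbols had become dates, the symbol was taken from the identifier.

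Columns were matched to samples by name. The members and lists were chosen with earlier results of these data known. Every member is named. Of the wider list and the relatives, genes past the fold threshold were to be named, and the text says which others were picked with their values in view. Markers are named where they describe the cells. Some genes are not reported here.

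Lines were compared by limma 3.58.1 (R 4.3.3), using lmFit and eBayes with a trend, on log2(FPKM + 0.5). Alternatives were other pseudocounts, filters, scalings and eBayes forms, a replicate block, leaving out each library, and limma voom on recovered fragments, chosen after seeing the data. To recover fragments, library sizes and gene lengths were sought that turned the FPKM into whole numbers, the smallest such length being taken. Multiples of a fitted length also give whole numbers, so fragments counted at a fitted length are minimum values. 14113 genes were whole at the GENCODE 44 exon length and 16739 at a fitted length, of 30853 above 0, and 0 of 300 were whole with wrong library sizes. Below 3 fragments a gene was taken as not shown to be expressed. Shared windows are 100-base stretches of GENCODE 44 transcripts found in another gene. Promoters are from RefSeq.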

Additional observations from a re-analysis of the deposited data

How the results depend on the processing

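Genes that rose or fell kept their direction in each alternative. Genes near 0 changed sign: rescaling to TPM gave a log2 fold change of 0.0496 for SPTAN1, upper-quartile scaling -0.0256 for ANK1 and -0.0212 for CD59, and quantile normalization -0.0354 for CD59. With 1 library left out, SPTAN1 ran from -0.0589 to 0.0297, ANK1 from -0.0724 to 0.2018, DMTN from -0.165 to 0.0453, TMOD1 from -0.1743 to 0.0273 and CD59 from -0.0007 to 0.1193. With no filter, which tested 30853 genes, 6 rose and 1 fell in place of 12 and 6. Of the 18, 13 still passed with eBayes without trend, 15 with upper-quartile scaling, 16 with quantile normalization and 17 after rescaling to TPM. Leaving out a library gave 0 to 3 genes past the fold threshold upwards in place of 2, and 0 to 10 that rose and 0 to 4 that fell by adjusted p, 0 to 3 of the wider list and 0 to 2 relatives past the fold threshold. The fewer samples lower the power of the test. A pseudocount of 1 FPKM left 1 gene of the wider list and 0 relatives past the fold threshold, a mean of at least 1 FPKM left 0 relatives, and limma voom gave 4 genes, ADD2 and ACKR1 among them, and 4 relatives. The replicate block kept 17 of 18 genes past the adjusted p, all but FUT1, and 2 past the fold threshold, and same-numbered libraries did not deviate together (correlation of deviations 0.0646), so the numbers were not taken as pairs. Over all genes, 64.3% of calls past the fold threshold were upwards, and 51.5% after quantile normalization.

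Depth limits GYPB, SLC4A1, SLC14A1, ACKR1, AQP1, GYPE in TF1-BA, SPTB and EPB42, which rest on few fragments at the smallest counts that fit. With 2 libraries a line, an adjusted p that misses the threshold does not show equal expression.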

Other observations

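Within 1000 kb of the Rh pair, some protein-coding genes with low FPKM fell, and the pair given here was chosen after its values were seen. CD52, a small lipid-anchored surface glycoprotein of lymphocytes, was at 4.33 and 4.43 FPKM in TF1-BA and 1.83 and 1.73 in TF1-BAR, with a log2 fold change of -1.10 ± 0.0935 (SE, adjusted p = 0.00547). LIN28A, an RNA-binding protein of embryonic cells, was at 0.996 and 1.37 and then 0.364 and 0.357 FPKM, with a log2 fold change of -0.96 ± 0.196 (SE, adjusted p = 0.0272).

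In the wider list, some abundant genes moved by less than the fold threshold and were likewise chosen after their values were seen. CD44, the hyaluronan receptor with the Indian antigens, was at 29.0 and 29.5 FPKM in TF1-BA and 52.3 and 54.6 in TF1-BAR and rose by 0.86 ± 0.0608 (SE, adjusted p = 0.00409). SLC2A1, the glucose transporter of red cells, was at 51.4 and 53.7 and then 31.8 and 33.8 FPKM and fell by 0.67 ± 0.0664 (SE, adjusted p = 0.00662). MPP1, the p55 protein that binds protein 4.1 and glycophorin C at the junction, was at 76.2 and 79.8 and then 52.6 and 48.9 FPKM and fell by 0.62 ± 0.0669 (SE, adjusted p = 0.00769), while EPB41 and GYPC rose.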
